A study of Homo sapiens with 2 samples.

Results

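The replication-dependent histone genes lie mostly in clusters on chromosomes 6 and 1 and carry the older gene names that begin with HIST1H, HIST2H, HIST3H or HIST4H. They were taken as every probe set that the platform annotation assigned to a single gene with such a name, matched through RefSeq gene identifiers because the annotation already used the newer names. This gave 51 probe sets of 45 genes, of 54613 probe sets and 19777 genes in all. RefSeq lists 90 genes with such a name, and the other 45 had no probe set of their own. The arrays compared AGS.W with AGS.veh, a pair of stable lines of AGS, a human gastric adenocarcinoma cell line. AGS.W had been transduced with a lentivirus that carried the whole coding region of WTX (AMER1), a tumour suppressor gene of the X chromosome, and AGS.veh was its negative control line, and the methods describe puromycin selection of the transduced cells. The promoter that drove WTX, and whether either line grew from 1 clone, were not given in the sources used here. RNA of each line was read on 1 Affymetrix U133 Plus 2.0 array, so no p-value, standard error or other test was possible, and every difference is one between 2 cultures.

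Histones package DNA. A pair each of the core histones H2A, H2B, H3 and H4 forms the nucleosome, and the linker histone H1 sits where the DNA enters and leaves it. The clustered genes supply new histones while DNA is copied in S phase, and their messengers end in a stem-loop, bound by SLBP, in place of a poly(A) tail. Some of these genes also give polyadenylated messengers, mostly in cells that divide little or differentiate, and a labelling reaction that starts at the poly(A) tail reads mainly those. The labels name the standard Affymetrix labelling and the methods a GeneChip IVT labelling kit, but neither names the primer. How far the stem-loop forms were read was thus not settled here, and the values below may be mainly those of polyadenylated messengers. Many of the genes are near-identical copies, and a probe set may also bind transcripts of its sister genes, so the value of each gene carries that uncertainty.

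The promoters show what the genes share in sequence. RefSeq promoter windows of GRCh38.p14, from 250 bases before to 50 bases after the annotated start, were at hand for 41 of the 45 genes and for 27305 genes in all. Each motif was searched on both strands. The TATA sequence TATAAA stood in 28 of 41 histone windows (68.3%), against 11.95% of all windows. CCAAT stood in 36 of 41 (87.8%), against 35.7%, and was in every H1, H2A, H2B and H3 window but in 2 of 7 of H4. The octamer ATTTGCAT, known from H2B promoters, stood in 10 of 13 H2B and 6 of 8 H2A windows and in none of H1, H3 or H4, against 1.80% of all windows. Windows of H2A and H2B genes that stand back to back overlap, so the same octamer can be counted for both genes of a pair. AAACACA, known as the H1 box, stood in all 6 H1 windows and in no other histone window, against 5.76%. These are matches of letters and not shown binding sites.

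The last 130 bases before the start are printed for the genes that lay at least 1.5-fold apart between the lines and for H2BC12, another H2B gene known to give polyadenylated messenger, with the motifs in capitals (ATTGG is CCAAT on the opposite strand). H1-2 is read from the minus strand of chr6:26056471-26056600, H2BC21 from the minus strand of chr1:149886683-149886812 and H2BC12 from the minus strand of chr6:27146859-27146988. H2BC5 is read from the plus strand of chr6:26157991-26158120 and H4C8 from the minus strand of chr6:26285535-26285664. H2BC12 and H2BC5 have 2 annotated starts each, of which the first was used.
H1-2: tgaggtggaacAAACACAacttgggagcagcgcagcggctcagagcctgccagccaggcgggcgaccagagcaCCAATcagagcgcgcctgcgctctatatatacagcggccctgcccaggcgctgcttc
H2BC21: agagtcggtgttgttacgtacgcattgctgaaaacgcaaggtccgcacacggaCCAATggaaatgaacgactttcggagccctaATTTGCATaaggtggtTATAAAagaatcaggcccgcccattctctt
H2BC12: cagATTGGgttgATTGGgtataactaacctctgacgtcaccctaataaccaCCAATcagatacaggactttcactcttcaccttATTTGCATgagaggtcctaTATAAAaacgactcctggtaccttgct
H2BC5: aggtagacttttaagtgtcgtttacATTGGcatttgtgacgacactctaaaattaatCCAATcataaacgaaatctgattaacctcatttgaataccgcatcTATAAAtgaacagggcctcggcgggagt
H4C8: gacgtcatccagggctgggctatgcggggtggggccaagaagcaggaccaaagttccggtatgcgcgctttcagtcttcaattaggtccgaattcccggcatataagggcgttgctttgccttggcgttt
The octamer began 46 bases before the start in both H2BC21 and H2BC12, and TATAAA began 30, 27 and 28 bases before it in H2BC21, H2BC12 and H2BC5. The H1 box of H1-2 began 119 bases and its CCAAT 57 bases before the start. The printed stretch of H4C8 held none of the 4 motifs. No motif overlapped another.

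All values are log2 signals as deposited, already scaled between the arrays. The array median was 4.02 in AGS.W against 4.03 in AGS.veh. A gene counted as above the signal filter where it reached the median on at least 1 array, which 12811 genes did (64.8%). Differences run as AGS.W minus AGS.veh. Over those genes their median on the log2 scale was -0.0087, and the middle 95% lay between -0.92 and 0.91. WTX itself had a single probe set, which gave 3.70 in AGS.W against 3.86 in AGS.veh, both below the array median; whether it reads the vector's coding region was not settled, so it checks neither label. One label field names brain tissue as the RNA source where all others name AGS. Of 11 measured epithelial genes, 8 were above the filter, 3 higher and 5 lower in AGS.W. Among them the keratins KRT18 and KRT8 gave log2 signals of 10.87 and 9.76 in AGS.W against 11.17 and 10.13 in AGS.veh, while EPCAM gave 6.88 in AGS.W against 5.96 in AGS.veh. The cadherin CDH1, the keratin KRT19 and the splicing factor ESRP1 were below the filter. Of brain markers, 7 of 13 measured glial and 7 of 15 measured neuronal genes were above the filter. The summed signal of the glial and the neuronal list came to log2 values of 7.85 and 8.62 in AGS.W against 7.83 and 8.51 in AGS.veh, and that of the epithelial list to 11.84 in AGS.W against 12.16 in AGS.veh. GFAP, the astrocyte filament, lay below the median at 3.44 in AGS.W against 2.97 in AGS.veh. The brightest glial gene was MBP, at 6.10 in AGS.W against 6.19 in AGS.veh. The brightest neuronal gene was GAD1, at 7.06 in AGS.W against 7.11 in AGS.veh, above EPCAM in both lines. The neuronal SNAP25, a gene of synaptic vesicle fusion, was 2.98-fold higher in AGS.W, at 5.15 in AGS.W against 3.57 in AGS.veh, where it lay below the median, and its mean log2 difference over 3 probe sets was 0.85. The part of these markers in the histone values was not tested.

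Most clustered histone genes lay close together in the 2 lines, and the linker gene H1-2 stood apart. Where a gene had several probe sets, the one of highest mean signal stood for it. Of the 45 genes, 25 were above the signal filter (55.6%) and 20 below it, and 22 reached the median on both arrays. Of the 25, 15 were higher and 10 lower in AGS.W (60% higher, against 45.7% of all genes above the filter), with a median log2 difference of 0.097 and a range from -0.66 to 1.27. Over all 45 the median was 0.059, and the 20 dim genes lay between -0.45 and 0.47. At 2-fold, 1 gene was higher in AGS.W (4% of the 25, against 1.83% of all genes above the filter) and 0 were lower (against 1.94%). At 1.5-fold, 2 genes were higher (8%, against 6.64%) and 2 lower (8%, against 7.37%). Counted over probe sets, 1 of 51 was at least 2-fold higher (1.96%, against 1.07% of all probe sets) and 0 at least 2-fold lower (against 1.12%). Counts this small lie near the share over all genes and single out no direction for the histone genes as a whole.

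**Figure D1:**
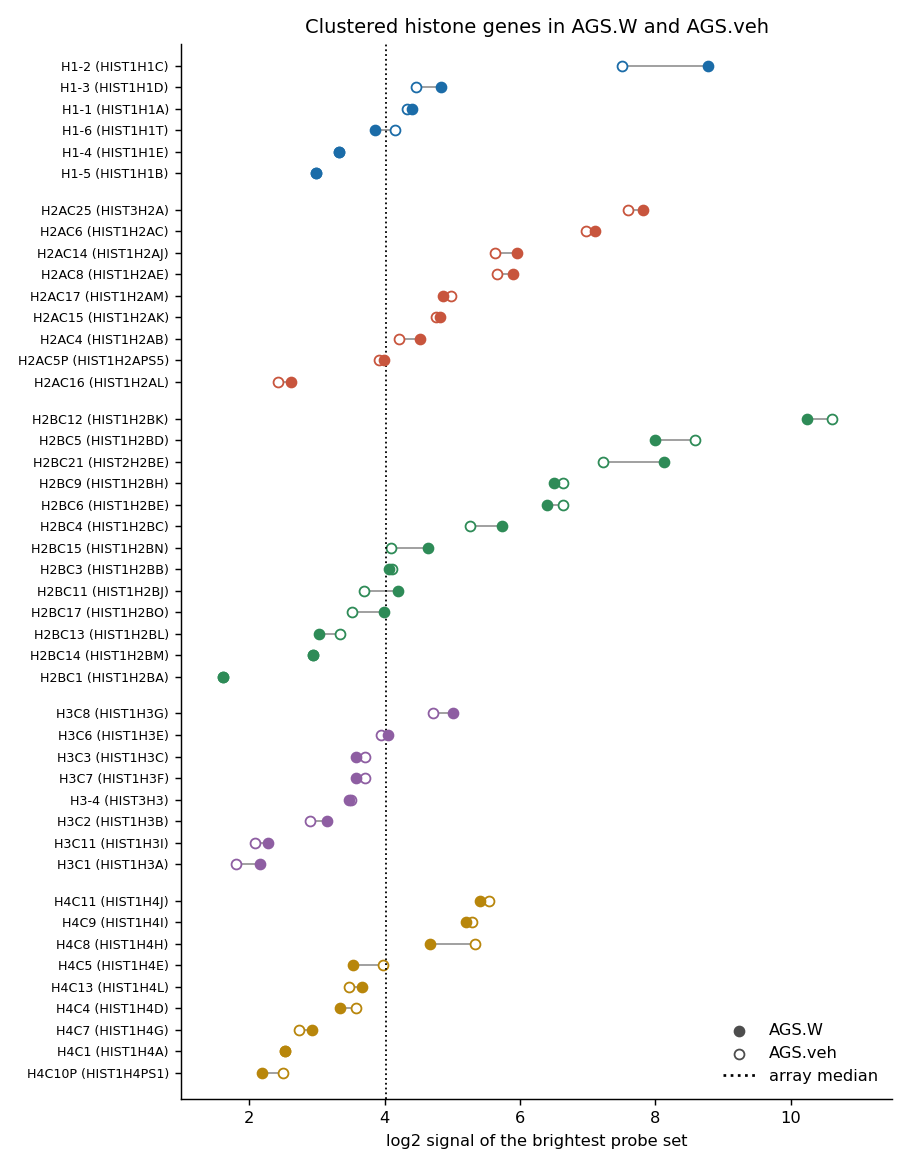
Log2 signal of each of the 45 clustered histone genes on its probe set of highest mean signal, in AGS.W (filled) and AGS.veh (open), by class (H1 blue, H2A red, H2B green, H3 purple, H4 ochre), with 1 array per line and no error bars. The dotted line is the array median; H1-2 shows the longest step, at 8.77 in AGS.W against 7.50 in AGS.veh, while 20 genes lie below the line in both lines.

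Of the linker histones, 6 genes were measured and 4 were above the filter, 3 higher and 1 lower in AGS.W, with a median log2 difference of 0.22. H1-2 (HIST1H1C, probe set 209398_at), one of the somatic H1 forms and the one made in most cell types, had a log2 signal of 8.77 in AGS.W against 7.50 in AGS.veh. It was 2.42-fold higher in AGS.W, a log2 difference of 1.27, and 114 of the 12811 genes above the filter had a larger one. In RNA of a whole culture, a different share of cells in S phase and a different level per cell cannot be told apart. The other somatic forms lay far closer. H1-3 (HIST1H1D) had 4.83 in AGS.W against 4.46 in AGS.veh, a log2 difference of 0.37. H1-1 (HIST1H1A) had 4.41 in AGS.W against 4.33 in AGS.veh, a log2 difference of 0.077. H1-6 (HIST1H1T), the H1 form of the testis, had 3.85 in AGS.W against 4.15 in AGS.veh, a log2 difference of -0.30. It passed the filter through AGS.veh alone and lay below the median in AGS.W, where its signal may be background. Its second probe set gave 3.64 on both arrays. H1-4 (HIST1H1E) and H1-5 (HIST1H1B), somatic forms of dividing cells, were below the filter with the same signal on both arrays, 3.33 and 2.98. The H1 signals above the median on both arrays were thus all higher in AGS.W, and 1 of these 3 passed 2-fold. Of all genes above the filter 45.7% were higher, and so small a count singles out no direction for H1.

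The H2A genes differed by small steps, none of which reached 1.5-fold. Of 9 genes, 7 were above the filter, 6 higher and 1 lower in AGS.W, with a median log2 difference of 0.21 and a range from -0.11 to 0.31. Of all genes above the filter 45.7% were higher, and so small a count singles out no direction for H2A. H2AC25 (HIST3H2A), the H2A gene of the cluster at the far end of chromosome 1, had 7.81 in AGS.W against 7.60 in AGS.veh, a log2 difference of 0.21. H2AC6 (HIST1H2AC), an H2A gene also known to give polyadenylated messenger, had 7.10 in AGS.W against 6.98 in AGS.veh, a log2 difference of 0.12. The 2 largest differences were those of H2AC14 (HIST1H2AJ), at 5.95 in AGS.W against 5.64 in AGS.veh, together with H2AC4 (HIST1H2AB), at 4.52 in AGS.W against 4.22 in AGS.veh, both 0.31. H2AC8 (HIST1H2AE) had 5.89 in AGS.W against 5.66 in AGS.veh, while H2AC15 (HIST1H2AK) had 4.81 in AGS.W against 4.75 in AGS.veh. H2AC17 (HIST1H2AM) was the single lower one, at 4.86 in AGS.W against 4.98 in AGS.veh. All of these code for replication-dependent H2A proteins that differ in few residues. Below the filter, H2AC16 had 2.62 in AGS.W against 2.42 in AGS.veh, while the pseudogene H2AC5P had 3.99 in AGS.W against 3.92 in AGS.veh. The further, dim probe sets of H2AC25 and H2AC15 had log2 differences of -0.13 and -0.22, against the direction of the brighter ones. As means over their probe sets H2AC25 had 0.041 and H2AC15 -0.082.

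The H2B genes spread in both directions more widely than H2A. Of 13 genes, 9 were above the filter, 4 higher and 5 lower in AGS.W, with a median log2 difference of -0.044 and a range from -0.59 to 0.90. H2BC21 (HIST2H2BE, probe set 202708_s_at), the H2B gene of the HIST2 cluster on chromosome 1 and one with a known polyadenylated form, had 8.12 in AGS.W against 7.22 in AGS.veh. This is a log2 difference of 0.90, or 1.86-fold, short of 2-fold, and 326 genes above the filter had a larger one. H2BC12 (HIST1H2BK, probe set 209806_at), whose promoter holds the octamer at the same distance from the start, had 10.23 in AGS.W against 10.60 in AGS.veh, a log2 difference of -0.37. Both genes hold the TATA sequence, a CCAAT box and the octamer in the printed stretch, and they lay on opposite sides of 0.

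H2BC5 (HIST1H2BD), which is also known in a polyadenylated form, had 7.99 in AGS.W against 8.59 in AGS.veh on probe set 209911_x_at, a log2 difference of -0.59 or 1.51-fold. Its other probe set, 222067_x_at, had 7.52 in AGS.W against 7.53 in AGS.veh. The mean difference over both was -0.30, so the size rested on 1 probe set. Among the other replication-dependent H2B genes, H2BC15 (HIST1H2BN) had 4.64 in AGS.W against 4.10 in AGS.veh, a log2 difference of 0.54. H2BC11 (HIST1H2BJ) had 4.19 in AGS.W against 3.70 in AGS.veh, while H2BC4 (HIST1H2BC) had 5.73 in AGS.W against 5.26 in AGS.veh, log2 differences of 0.49 and 0.47. H2BC11 lay below the median in AGS.veh, where its signal may be background. On the lower side were H2BC6 (HIST1H2BE) at 6.40 in AGS.W against 6.64 in AGS.veh, H2BC9 (HIST1H2BH) at 6.50 in AGS.W against 6.64 in AGS.veh, as well as H2BC3 (HIST1H2BB) at 4.07 in AGS.W against 4.11 in AGS.veh. The testis gene H2BC1 gave 1.61 on both arrays, and H2BC14 gave 2.94 on both. H2BC13 and H2BC17, both below the filter, had log2 differences of -0.30 and 0.47.

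Few H3 genes gave a signal. Of 8, 2 were above the filter. H3C8 (HIST1H3G) had 5.01 in AGS.W against 4.71 in AGS.veh, a log2 difference of 0.29. H3C6 (HIST1H3E) had 4.05 in AGS.W against 3.95 in AGS.veh. It passed the filter through AGS.W alone, just above the median there and just below it in AGS.veh. Its second probe set had 2.20 in AGS.W against 2.70 in AGS.veh. The direction of H3C6 thus differed between a probe set near the median and a dim one. The 6 others, the testis gene H3-4 (HIST3H3) among them, lay below the median in both lines, with log2 differences between -0.14 and 0.35.

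Of 9 H4 genes, 3 were above the filter, with a median log2 difference of -0.13. All 3 were lower in AGS.W, as were 6466 of all 12811 genes above the filter. So small a count singles out no direction for H4. H4C8 (HIST1H4H), an H4 gene with a known polyadenylated form, had 4.67 in AGS.W against 5.33 in AGS.veh on probe set 232035_at, a log2 difference of -0.66 or 1.58-fold. Its second probe set, 208180_s_at, had 3.75 in AGS.W against 4.66 in AGS.veh, a log2 difference of -0.90. Its AGS.W signal lay below the array median and may be background, so that size is not firm. Both probe sets of H4C8 were thus lower in AGS.W, and neither reached 2-fold. H4C11 (HIST1H4J) had 5.40 in AGS.W against 5.54 in AGS.veh, while H4C9 (HIST1H4I) had 5.20 in AGS.W against 5.29 in AGS.veh, log2 differences of -0.13 and -0.087. Of the 6 dim genes, H4C5 lay closest to the median in AGS.veh, at 3.53 in AGS.W against 3.98 in AGS.veh. H4C5, H4C10P and H4C4 had log2 differences of -0.45, -0.31 and -0.24. H4C13 and H4C7 were higher, with 0.20 and 0.18, and H4C1 was equal.

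**Figure D2:**
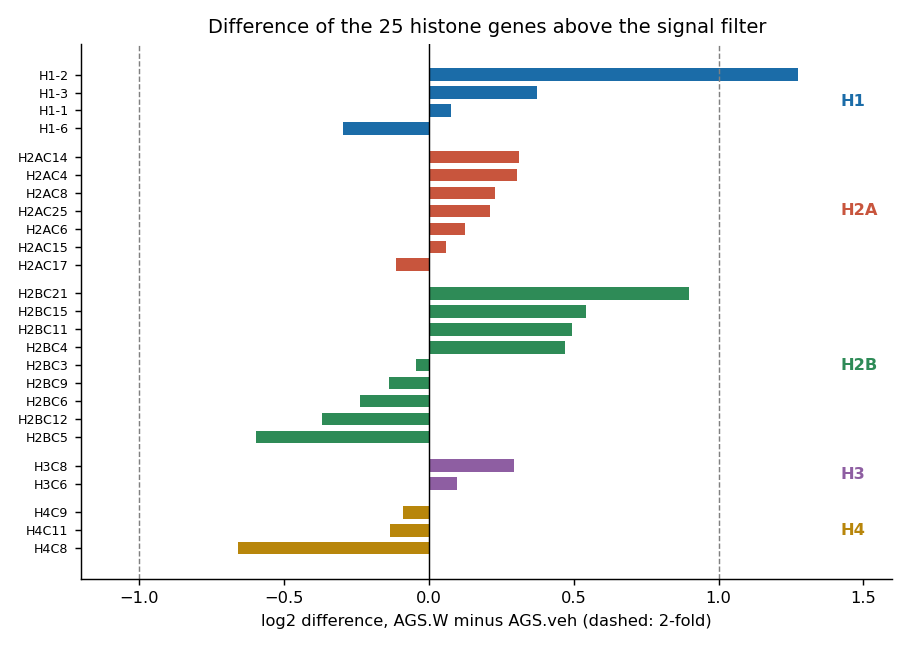
Log2 difference, AGS.W minus AGS.veh, of the 25 clustered histone genes above the signal filter, as bars from 0 grouped by histone class, with dashed lines at 2-fold and 1 array per line. H1-2 at 1.27 is the only bar past 2-fold, and all 3 H4 bars lie below 0.

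The direction of the H2B genes went with the type of probe set. A name ending in _x_at marks a probe set in which some probes are expected to match other transcripts too. Among H2B probe sets above the filter, all 4 of this type were lower in AGS.W, with a median log2 difference of -0.19. Both sets of H2BC5 are among these 4, one of them at only -0.012, so they are not 4 separate genes. Of the other types, 4 of 6 were higher, with a median of 0.48. The exceptions were H2BC12 and H2BC3. In the remaining classes the _x_at sets were too few to compare, with 1 each in H2A (0.31), H3 (0.29) and H4 (-0.13). Over all classes, 2 of 7 _x_at sets were higher (median -0.13), against 13 of 20 of the other types (median 0.11). Whether matches to other transcripts set these directions was not tested.

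**Figure D3:**
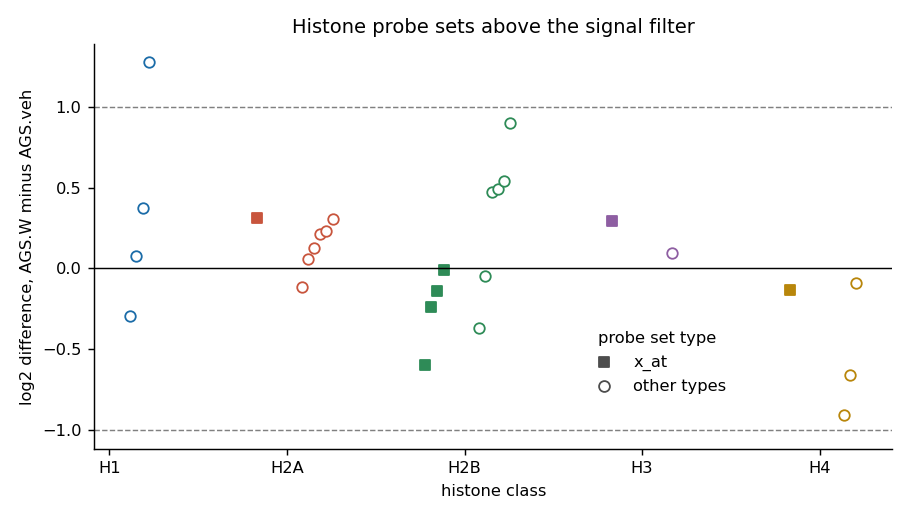
Log2 difference, AGS.W minus AGS.veh, of each histone probe set above the signal filter, by histone class, as filled squares for the _x_at type and open circles for the other types, with dashed lines at 2-fold. The 4 H2B squares all lie at or below -0.012, whereas 4 of 6 H2B circles lie between 0.47 and 0.90.

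Copies too alike to be told apart were read by 20 further probe sets that the annotation assigns to several clustered histone genes at once, which stand outside the 51. Of these, 16 were above the filter, 7 higher, 8 lower and 1 equal in AGS.W, with a median log2 difference of -0.027, and 0 were 2-fold apart in either direction. The probe set of 14 H4 genes with the highest signal had 11.63 in AGS.W against 11.69 in AGS.veh, a log2 difference of -0.055. For the same 14 genes, the other probe sets above the filter had 5.36 and 5.60 in AGS.W against 4.99 and 5.68 in AGS.veh. Their log2 differences were 0.36 and -0.076, in opposite directions. For H2AC18 and H2AC19, a pair of identical H2A genes of the HIST2 cluster, probe sets had 10.80 and 9.59 in AGS.W against 10.36 and 9.12 in AGS.veh, log2 differences of 0.44 and 0.47, and another had 4.78 in AGS.W against 4.75 in AGS.veh. One probe set shared by H2BC4, H2BC6, H2BC7, H2BC8 and H2BC10 had 5.69 in AGS.W against 4.75 in AGS.veh, a log2 difference of 0.93. Another pair for the same 5 genes, both of the _x_at type, had 6.53 and 5.34 in AGS.W against 6.60 and 5.60 in AGS.veh. Probe sets for one and the same group of H2B genes thus differed in direction. A pair shared by H2BC11 and H2BC8, neither of the _x_at type, was not higher, with log2 differences of -0.20 and 0. The H3 probe sets above the filter were all lower, and the one shared by 10 H3 genes and H2AC7 was lowest, at 4.14 in AGS.W against 4.72 in AGS.veh.

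Many H2A and H2B genes stand back to back and share the stretch between their starts. Among the clustered genes, 12 such pairs had overlapping promoter windows on opposite strands, all but H3C4 with H2BC7 made of an H2A and an H2B gene, and 4 had both genes measured alone. H2BC4 and H2AC6, 246 bases apart, had log2 differences of 0.47 and 0.12. H2BC14 and H2AC14, 245 bases apart, had 0 and 0.31, with H2BC14 below the filter. H2BC15 and H2AC15, 194 bases apart, had 0.54 and 0.059, and H2BC17 and H2AC17, 240 bases apart, had 0.47 and -0.11, with H2BC17 below the filter. The 2 genes of a pair did not have the same size of difference in any of the 4, and no error is at hand to set against the gaps. For H2BC21 the neighbour H2AC20, 236 bases away, had no probe set of its own.

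The largest differences in both directions fell among genes known to give polyadenylated messengers. Of 11 such genes, listed from general knowledge but with earlier results of these data known, 9 were measured alone. All 9 were above the filter, 5 higher and 4 lower in AGS.W. Their median log2 difference was 0.12 and their range from -0.66 to 1.27. The 36 other genes, of which 16 were above the filter, had a median of 0.087 over those 16 and a range from -0.30 to 0.54. All 4 genes at least 1.5-fold apart were on the list, H1-2 and H2BC21 higher and H2BC5 and H4C8 lower, where 6.64% of all genes above the filter were higher and 7.37% lower at this fold. Nothing particular to the list is read from so small a count, nor from a list made with earlier results known. The list also held the genes of highest signal in H1 and H2B, and the part of signal in this difference was not tested.

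The groups of genes that act with the clustered histones had median log2 differences between -0.21 and -0.021. Among replication-independent histones, 9 of 11 measured genes were above the filter, 3 higher and 5 lower, with a median log2 difference of -0.11. H1-10, a linker histone made outside S phase and left out of the clustered genes because it has no such older name, was 2.41-fold higher, at 9.41 in AGS.W against 8.13 in AGS.veh. CENPA, the H3 form of centromeres, had 7.91 in AGS.W against 7.24 in AGS.veh, a log2 difference of 0.67. H2AJ, an H2A form with a known link to senescence, had 9.29 in AGS.W against 8.85 in AGS.veh, a log2 difference of 0.44, and its other probe set above the filter had 0.53. A further pair below the filter on both arrays had -1.04 and -1.05, which brought the mean over all 4 to -0.28. On the lower side were H3-3A, which codes for the replacement histone H3.3, with a log2 difference of -0.39, the DNA damage histone H2AX with -0.37 and the H2A.Z gene H2AZ2 with -0.26. None of these 3 reached 1.5-fold, and as means over their probe sets H2AX had -0.13 and H2AZ2 -0.10. H1-2 and H1-10 were the measured linker histone genes past 2-fold, each on 1 probe set, and both were higher in AGS.W. Of the other linker genes on this list, H1-8 gave 4.37 on both arrays, and H1-7, below the filter, had a log2 difference of -0.38. Of all genes above the filter 1.83% were at least 2-fold higher, and nothing particular to linker histones is read from so small a count.

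On the list of genes that make and trim histone messengers, more were lower than higher, by small steps. The list also holds general factors of messenger processing, such as the CPSF genes, so its count is not one of histone messengers alone. Of 28 measured genes, all above the filter, 22 were lower and 6 higher in AGS.W, and 0 were 2-fold apart. Of all 12811 genes above the filter, 6466 were lower. The median log2 difference of the list was -0.21 and its range from -0.50 to 0.29. The count depended on the probe set. As means over probe sets CPSF2, LSM11, TUT7 and CRAMP1 changed sign, to 0.056, 0.10, 0.10 and 0.041, while no higher gene turned lower. SLBP, the stem-loop binding protein, had 8.89 in AGS.W against 8.75 in AGS.veh, a log2 difference of 0.14. NPAT, the activator of clustered histone transcription, had 7.53 in AGS.W against 7.71 in AGS.veh, a log2 difference of -0.18, or -0.039 averaged over its probe sets. LSM10 and LSM11, proteins particular to the U7 particle that cuts these messengers, had log2 differences of -0.35 and -0.017, and LSM11 had 0.10 averaged over its probe sets. The lowest values were -0.50 for the ring protein SNRPF, -0.49 for the cleavage factor CSTF2 and -0.42 for ZNF473, a U7-associated zinc finger protein, with means over their probe sets of -0.72 for CSTF2 and -0.19 for ZNF473. The highest were 0.29 for TUT4, a uridylyl transferase, 0.16 for HINFP, a transcription factor of H4 genes, and 0.14 for SLBP.

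The histone chaperones, which carry histones to DNA, had 25 measured genes above the filter, 9 higher and 15 lower, with a median log2 difference of -0.021. HJURP, the chaperone of CENPA, was 2.44-fold higher on 1 probe set, at 7.73 in AGS.W against 6.44 in AGS.veh, the only one past 2-fold. CABIN1 and SPTY2D1 followed with log2 differences of 0.67 and 0.45. HIRA, the chaperone that places H3.3 outside S phase, had 6.89 in AGS.W against 7.70 in AGS.veh, a log2 difference of -0.81, and its second, dim probe set gave 1.32 on both arrays. IPO4, an importer of histones, and NASP, a chaperone of H3, H4 and H1, had -0.49 and -0.38. CABIN1 works in the complex of HIRA, and the 2 genes lay on opposite sides.

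DNA replication genes, which share the S phase timing of the clustered histones, were spread around 0. Of 40 measured genes, all above the filter, 19 were higher and 20 lower in AGS.W, with a median log2 difference of -0.023 and 0 at 2-fold in either direction. The highest were 0.48 for DBF4, the activator of the kinase CDC7, 0.37 for the origin licensing factor CDC6 and 0.35 for the clamp loader subunit RFC4. The lowest were GINS2, a part of the replicative helicase, at 7.63 in AGS.W against 8.55 in AGS.veh, or -0.92 on its probe set of highest signal, UHRF1, which guides maintenance of DNA methylation, with -0.65, and MCM10, a factor of replication initiation, with -0.60. The probe sets of GINS2 above the filter differed in direction, one of them at 5.02 in AGS.W against 4.76 in AGS.veh. As means over their probe sets GINS2 had -0.47 and MCM10 -0.22. PCNA, the sliding clamp, had 9.93 in AGS.W against 10.00 in AGS.veh.

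**Figure D4:**
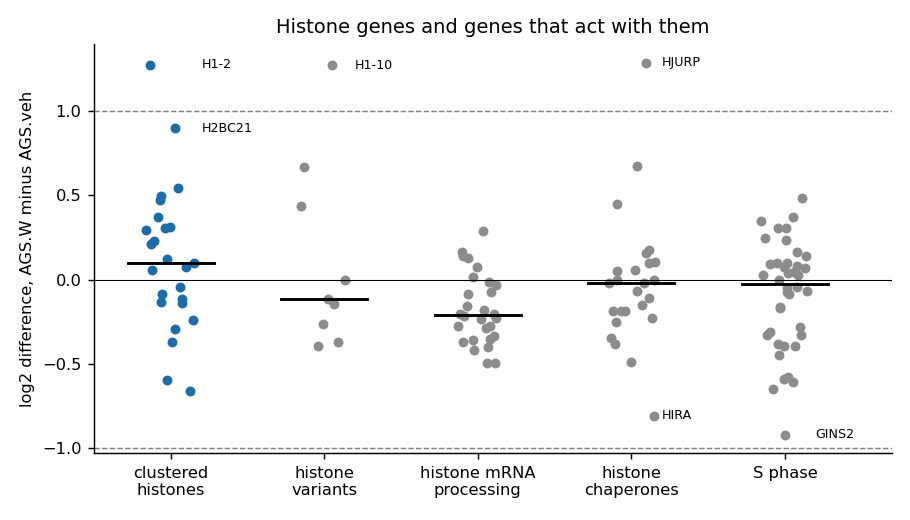
Log2 difference, AGS.W minus AGS.veh, of each gene above the signal filter, as points for the 25 clustered histone genes (blue) and for histone variants, histone mRNA processing, histone chaperones and S phase genes (grey), with a bar at each median and dashed lines at 2-fold. H1-2 at 1.27, H1-10 at 1.27 and HJURP at 1.29 are the only points past 2-fold, and the medians run between -0.21 and 0.097.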

How the data were processed

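Total RNA of AGS.W and AGS.veh was labelled with biotin and read on an Affymetrix U133 Plus 2.0 array of its own. Deposited values were log2 signals per probe set that the authors had already normalized, and the submitters' processing notes list MAS5 and RMA without their roles, versions or settings. Both columns were used as deposited. After 62 control probe sets were left out, 54613 probe sets remained, and the value of AGS.veh was subtracted from that of AGS.W on the log2 scale. Platform annotation of 2016 assigned 41091 to 1 gene and 1801 to several, and symbols were updated through RefSeq (GRCh38.p14). Probe positions within transcripts were not used. The number of arrays limits the precision. The fold threshold of 2 followed the methods, whose FDR could not be applied.

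Named genes were those at least 2-fold apart, the 3 of highest signal and the 2 largest differences in each direction of every class, genes whose probe sets above the filter differed in direction, and up to 3 in each direction of every partner list. Other members are printed for completeness. The members, the gene lists, which came from general knowledge, and the promoter motifs were chosen with earlier results of these data known. On simulated arrays with 19777 genes, the 2-fold call recovered 100 of 100 genes made 4-fold higher and 100 of 100 made 4-fold lower. The altered genes were drawn at random, and the added noise was far smaller than the change. This checks the calculation only and does not show how reliably smaller differences, such as that of H1-2, are called. Alternatives were other scalings, signal filters, fold thresholds and probe set choices. The work was done in Python 3.11.15 (pandas 2.3.3, numpy 2.4.6) with lowess curves of statsmodels 0.14.6, and figures were drawn with matplotlib 3.10.9.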

Additional observations from a re-analysis of the deposited data

How the results depend on the processing

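The 2-fold call of H1-2 held under quantile normalization and subtraction of a lowess curve (span 0.3), but not at a threshold of 3. At that threshold 0 genes and 0 probe sets were higher. Centring on the median left its value unchanged. H1-2 rests on 1 probe set, with neither the _x_at nor the _s_at ending, and its signal passed the upper quartile on both arrays. The signal filters and the choices of probe set therefore could not change the call. At 1.5-fold, 2 genes were higher and 2 lower, and 2 probe sets were higher and 3 lower. With genes above the upper quartile only, the median log2 difference was 0.17 over 10 histone genes and 1.27 for the 1 H1 gene left, and no H3 or H4 gene remained. Without the _x_at and _s_at types the median was 0.47 over 5 H2B genes and -0.37 over 2 H4 genes, so the sign of the H2B median depended on that choice. Of 216 values of single genes under the alternatives, 215 shifted from the reported difference by less than the spread of the differences of genes of like signal, and 1 shifted by more, H3C6, to -0.20 as the mean of its probe sets. H2AC15 shifted by less but changed sign, to -0.082, under the same choice. Many of the 216 values could not move. Centring left the differences as they were, and only 6 of the 45 genes had several probe sets to average. The 36 genes left without the _x_at and _s_at types kept the probe set they had. The 215 are thus no measure of how firm the differences are. No paired analysis was possible because AGS.W and AGS.veh had 1 array each, which also leaves no replicate to omit. Histone genes near or below the array median, 20 of 45 under it on both arrays, have signals that may be background.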

Other observations

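Differences of exactly the same size recurred across probe sets. To 5 decimals, and leaving out probe sets with the same signal on both arrays, 19880 of 20488 probe sets below the array median on both arrays shared the size of their difference, in either direction, with another probe set (97.0%), against 18264 of 27225 above the signal filter (67.1%). Among the histone probe sets 33 of 45 did (73.3%). H2AC16 and H4C13 both had a log2 difference of 0.199306, a size found in 804 probe sets, and H2BC11 with 0.493182 and the dim probe set of H3C6 with -0.493182 shared theirs with 160. The sizes of H1-2, H2BC21, H2BC12 and H2BC4, and of the brighter probe set of H2BC5, each occurred once. Reported differences above the filter recurred as well. Those of the H4C8 probe sets 232035_at and 208180_s_at were found in 5 and 3 probe sets, and those of H2BC15, H2AC14 and H1-3 in 118, 53 and 23. A further 6 of 51 histone probe sets (11.8%) had the same signal on both arrays, against 12.6% of all probe sets.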
